A study of Mus musculus with 6 samples.

Results

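The 30 genes described here encode the enzymes of the tricarboxylic acid (TCA) cycle, the enzymes that feed carbon into it or draw carbon from it (anaplerosis), the glutamine and malate-aspartate steps linked to it, and 5 transporters of their substrates. They were listed by name from knowledge of the pathway, but the choice was made with earlier results of these data known. All 30 were found in the count table of 17068 genes. The data were bulk RNA-Seq of lateral cortex, collected at embryonic day (E) 12.5 from 6 female c57/bl6 embryos. Control libraries 1, 2 and 4 came from embryos without Cre that were Foxp1 fl/+, and control 3 came from a Foxp1 fl/fl embryo without Cre. The libraries labelled Foxp1cKO, 1 and 2, came from Foxp1 fl/fl;Emx1Cre embryos. Floxed Foxp1 alleles were therefore carried by all 6 embryos, and controls 1, 2 and 4 also had a wild-type allele. Emx1Cre acts in progenitors of the dorsal telencephalon and their progeny, so vessels, blood and cells that arise elsewhere were not targeted.

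The TCA cycle runs in the mitochondrial matrix. It joins acetyl-CoA to oxaloacetate, oxidises the resulting citrate stepwise back to oxaloacetate, and passes the electrons to the respiratory chain. Carbon that leaves as citrate or as amino acids has to be replaced, through pyruvate carboxylase or through glutamine and glutamate. The malate-aspartate shuttle carries reducing equivalents of the cytosol into the matrix. Progenitors of the early cortex are known for high glycolysis, and differentiating neurons for a growing use of mitochondrial respiration. The comparison asked whether these genes differed where the authors set out to delete Foxp1, a forkhead transcription factor whose loss they studied alongside glycolysis and hypoxia signaling.

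The libraries held 50076008 to 78346979 counts on genes, and 3 counts, taken as the floor, corresponded to 0.0381 to 0.0596 CPM. CPM is the count scaled to a common library size after TMM normalization, and the floor covers counting error only. The targeted gene went against its label. Foxp1 (ENSMUSG00000030067.17, chr6:98925338-99522721, GRCm38, minus strand) was at 59.7, 60.8, 71.2 and 79.1 CPM in controls 1 to 4 and at 83.2 and 76.8 CPM in the libraries labelled Foxp1cKO. Its log2 fold change, always given as labelled Foxp1cKO minus control, was 0.24 (SE 0.129, adjusted p = 0.468, edgeR). Exon counts were not analysed here, so a deletion of the floxed exons was not checked. The paper cites earlier work in which Foxp1 protein was significantly lost in these mutants before the stage sampled. Each direction below is therefore a direction between libraries as labelled.

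Marker genes showed a neural tissue with cells of other kinds in each library, and none of the markers measured was at 0. Radial glia markers (7 of 8 listed in the table) summed to 1747.1 to 2392.1 CPM in the controls and 2045.8 to 2163.1 CPM in the libraries labelled Foxp1cKO, and neuronal markers (5 of 6) to 1648.6 to 3141.3 CPM and 2063.2 to 2321.6 CPM. Control 4 was highest of the controls in all 7 radial glia markers, and control 3 was highest in all 6 markers of the ventral telencephalon, with a sum of 732.22 CPM against 205.83 to 319.93 CPM in the other controls and 470.08 and 354.55 CPM in the libraries labelled Foxp1cKO. Red cell genes summed to 967.75 to 1242.7 CPM in controls 1 to 3, 3327.2 CPM in control 4, and 3665.7 and 3928 CPM in the libraries labelled Foxp1cKO, with 6 of 6 higher in the latter. Pericyte markers (4 of 4 higher) summed to 64.106 to 83.137 CPM in controls and to 103.86 and 107.99 CPM. No marker of any list passed an adjusted p of 0.05 with edgeR. At an unadjusted p under 0.05, none was lower, and 3 red cell, 2 pericyte, 1 endothelial and 1 microglial gene were higher. Over all genes, 6.53% were higher and 6.50% lower at this threshold. The endothelial list was split, with 3 lower and 3 higher, as was the microglial list, with 2 lower and 3 higher. The part of cell composition in the results below was not tested. In bulk tissue, fewer cells of a type and less RNA per cell cannot be told apart.

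No TCA cycle or anaplerosis gene passed the test. At an adjusted p under 0.05 (edgeR quasi-likelihood, Benjamini-Hochberg over 17068 genes), 0 of 30 were called, where 26 of all genes (0.152%) were called, all of them higher; the smallest adjusted p among the 30 was 0.26. Most of the 30 nevertheless had lower values in the libraries labelled Foxp1cKO. The log2 fold change was below 0 in 24 genes (80%) and above 0 in 6, where 50.7% of all genes were below 0. The median over the 30 genes was -0.09, against -0.0044 over all genes. At an unadjusted p under 0.05, 5 of the 30 were lower and 0 were higher, where 13.0% of all genes passed, 6.50% lower and 6.53% higher. DESeq2 called 2 of the 30, Dlst and Sdhb, both lower, where it called 1.31% of the 15067 genes it tested as lower and 2.06% as higher, and limma on the deposited log2-like values called 0 of the 30.

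The differences were small. Log2 fold changes ran from -0.31 (Fh1) to 0.14 (Slc25a1), and all 30 of the 95% confidence intervals lay between -0.63 and 0.58. A change of 2-fold (1 on the log2 scale) in either direction was thus outside the interval of each gene. In 10 genes both libraries labelled Foxp1cKO lay below all 4 controls, where 13.1% of all genes did so, and in 1 gene both lay above, where 11.5% did. Control spread was also small in these genes. The ratio of the highest to the lowest control had a median of 1.18 over the 30 genes and 1.37 over all genes, and the largest such ratio was 1.92, in Slc1a5.

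**Figure D1:**
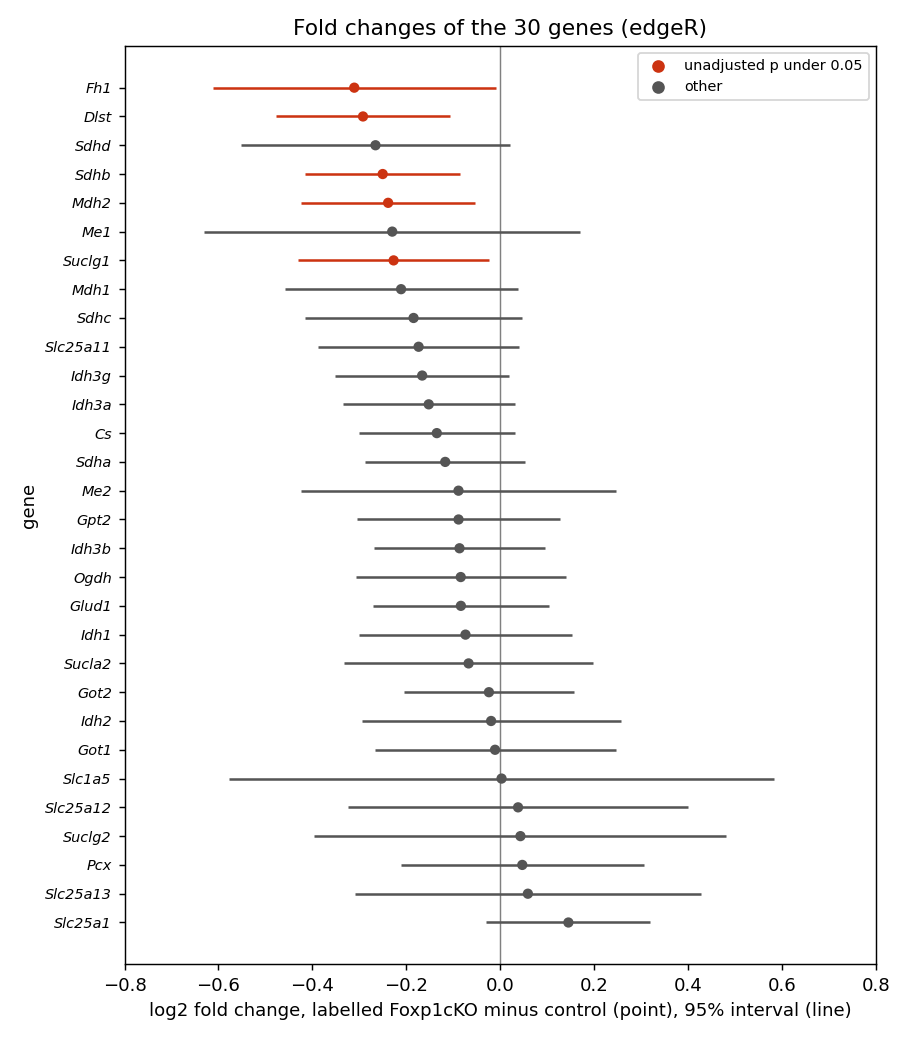
Log2 fold change (labelled Foxp1cKO minus control, x axis) of each of the 30 genes (y axis), with the edgeR estimate as a point and its 95% confidence interval as a line. The 5 genes in red had an unadjusted p under 0.05 and all lay below 0; no interval reached -1 or 1.

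The 15 enzymes of the mitochondrial cycle itself run from citrate synthase to malate dehydrogenase. Of these, 14 were lower and 1 (Suclg2) was higher, with a median log2 fold change of -0.17, and they included all 5 genes with an unadjusted p under 0.05 and 9 of the 10 lower genes whose libraries did not overlap. The other 15 genes, which cover cytosolic and NADP enzymes, anaplerosis and transporters, had 10 lower and 5 higher and a median of -0.02. The difference between these sets of genes was not tested. Summed over the 15 cycle enzymes, the level was 1814.8, 1785.5, 1691.3 and 1832 CPM in controls 1 to 4, and 1567 and 1598 CPM in the libraries labelled Foxp1cKO. Both of the latter lay below the lowest control. Over the other 15 genes the sums were 1309.6, 1353.9, 1325.5 and 1330.4 CPM in controls and 1238.1 and 1303 CPM in the libraries labelled Foxp1cKO, both below the lowest control, library 2 by a narrow margin.

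**Figure D2:**
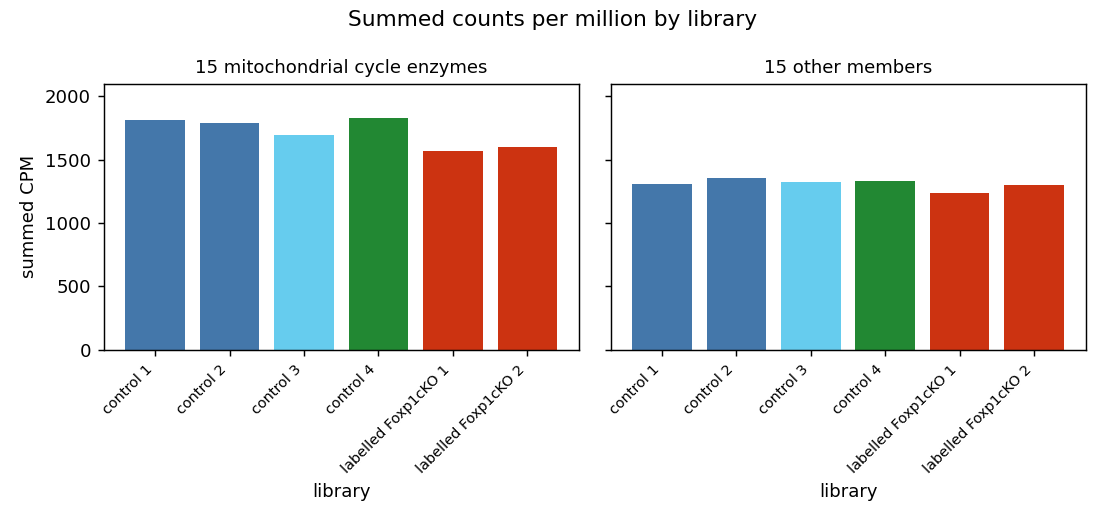
Summed CPM (y axis, from 0) in each of the 6 libraries (x axis) for the 15 mitochondrial cycle enzymes (left) and the 15 other genes (right). In the left panel the libraries labelled Foxp1cKO, at 1567 and 1598 CPM, are below all 4 controls, of which control 3 is lowest at 1691.3 CPM.

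Citrate synthase (Cs), which opens the cycle by joining acetyl-CoA to oxaloacetate, was among the separated genes. It was at 329, 330, 308 and 314 CPM in controls 1 to 4 and at 295 and 289 CPM in the libraries labelled Foxp1cKO. Both of the latter lay below every control, by a log2 fold change of -0.14 (SE 0.0703, adjusted p = 0.456). The subunits of the NAD-dependent isocitrate dehydrogenase, the first oxidative decarboxylation, also had lower values. Idh3a, its catalytic subunit, had 80.7, 76.1, 85 and 78.7 CPM in controls and 69.9 and 74.3 CPM in the libraries labelled Foxp1cKO (log2 fold change -0.15, adjusted p = 0.45). Idh3g, a regulatory subunit, had 85.4, 81.5, 75.3 and 80.7 CPM in controls and 70.3 and 73.5 CPM (-0.17, adjusted p = 0.417). Neither gene overlapped between the groups. Idh3b, whose exons overlap those of Nop56, did overlap, with 89.6 to 97.8 CPM in controls and 83.9 and 92.4 CPM (-0.09).

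The 2-oxoglutarate dehydrogenase complex, which makes succinyl-CoA, held the gene with the smallest p of the 30. Dlst (ENSMUSG00000004789.10, chr12:85110833-85134845, plus strand), the succinyltransferase core of the complex, was at 180, 168, 164 and 177 CPM in controls and at 147 and 134 CPM in the libraries labelled Foxp1cKO. All controls were above both of the others, and the log2 fold change was -0.29 (SE 0.0781, 95% interval -0.48 to -0.11, unadjusted p = 0.00715, adjusted p = 0.26). Its dehydrogenase subunit Ogdh did not share this, with 103 to 121 CPM in controls and 113 and 97.6 CPM in the libraries labelled Foxp1cKO (log2 fold change -0.08), a clear overlap. The dihydrolipoamide dehydrogenase Dld, a subunit shared with other complexes and taken from the further list described last, had 109, 110, 104 and 117 CPM in controls and 101 and 98.0 CPM (-0.15, adjusted p = 0.45), with no overlap. In the next step, succinyl-CoA ligase, the alpha subunit Suclg1 (ENSMUSG00000052738.14, chr6:73248382-73276911) was at 63.3, 60.2, 57.2 and 64.9 CPM in controls and at 50.1 and 54.8 CPM (-0.23, SE 0.0861, adjusted p = 0.35), again with no overlap. Its alternative beta partners both overlapped between the groups. The GDP-forming Suclg2 spread over 31.3 to 51.8 CPM in controls with 42.5 and 42.3 CPM in the libraries labelled Foxp1cKO (0.04), and the ADP-forming Sucla2 over 71.6 to 91.7 CPM with 77.3 and 72.9 CPM (-0.07). Control 4 was the highest and control 3 the lowest control in all 3 ligase genes.

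Succinate dehydrogenase, complex II of the respiratory chain, had lower values in each of its 4 subunits (median log2 fold change -0.22). The iron-sulfur subunit Sdhb (ENSMUSG00000009863.14, chr4:140961203-140979193, plus strand) was at 99.4, 101, 97.0 and 104 CPM in controls and at 81.9 and 86.7 CPM in the libraries labelled Foxp1cKO. Its controls lay close together and the gap to the other group was wider than their range, with a log2 fold change of -0.25 (SE 0.0701, 95% interval -0.42 to -0.08, unadjusted p = 0.00896, adjusted p = 0.277). The flavoprotein subunit Sdha had 228, 217, 207 and 225 CPM in controls and 201 and 203 CPM (-0.12, adjusted p = 0.524), separated by a narrow margin. The membrane anchors overlapped between the groups. Sdhc had 69.6 to 84.9 CPM in controls and 66.5 and 70.7 CPM (-0.18). Sdhd was at 75.2, 75.8, 67.6 and 83.3 CPM in controls and at 55.8 and 69.7 CPM (-0.27, SE 0.121, adjusted p = 0.409), its library 2 labelled Foxp1cKO lying above control 3. The fold change was -0.115 without library 1 labelled Foxp1cKO and -0.452 without library 2.

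The last steps of the cycle had the largest median difference of its steps, -0.27. Fumarate hydratase Fh1 (ENSMUSG00000026526.14, chr1:175600374-175625635, minus strand), which turns fumarate into malate, was at 52.2, 49.1, 44.3 and 59.1 CPM in controls and at 38.7 and 43.8 CPM in the libraries labelled Foxp1cKO. The groups did not overlap, but control 3 was only just above the higher of the libraries labelled Foxp1cKO, and the log2 fold change of -0.31 had the interval -0.61 to -0.01 (SE 0.128, adjusted p = 0.372). Mitochondrial malate dehydrogenase Mdh2 (ENSMUSG00000019179.10, chr5:135778480-135790398), which restores oxaloacetate, was at 226, 221, 210 and 211 CPM in controls and at 174 and 194 CPM, both lower than any control (-0.24, SE 0.0785, adjusted p = 0.305).

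**Figure D3:**
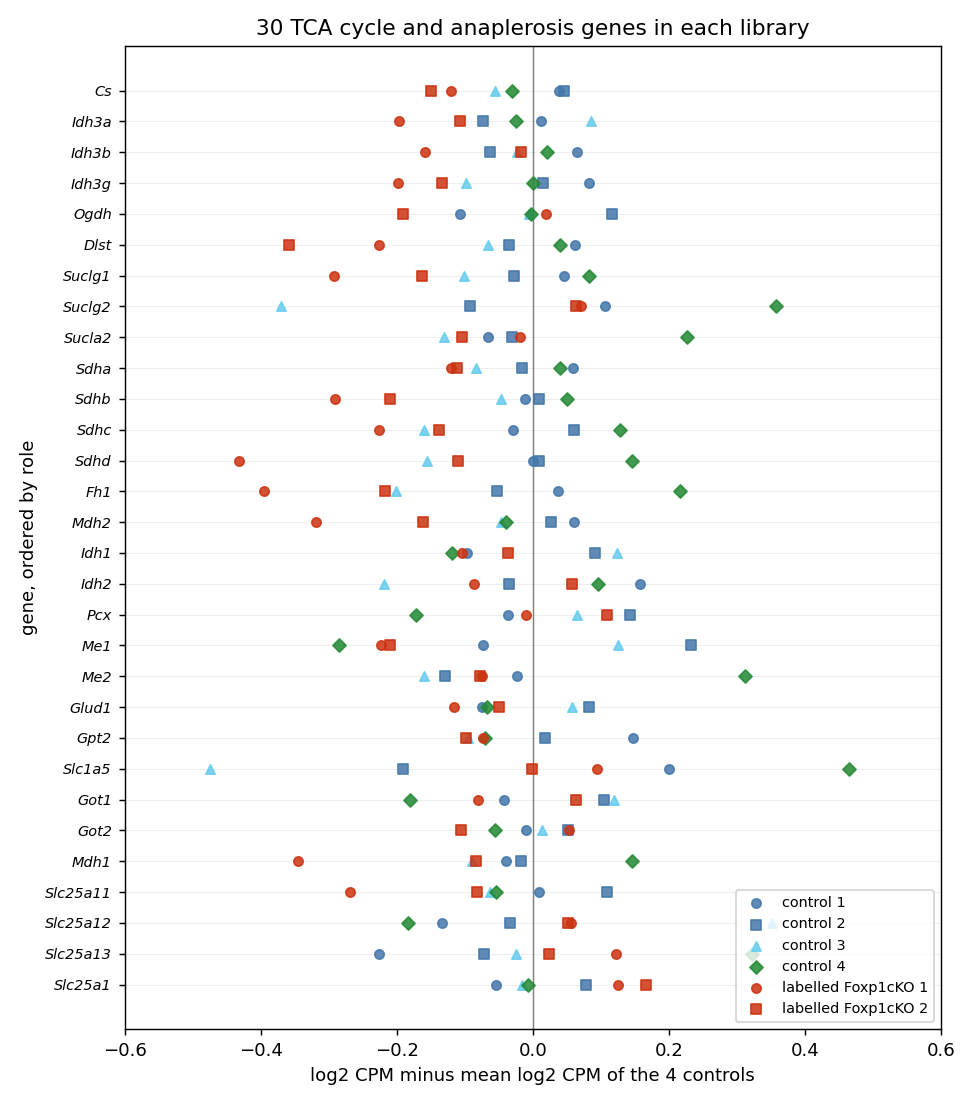
Log2 CPM of each of the 30 genes (y axis) minus the gene's mean log2 CPM over the 4 controls (x axis), with 1 point for each of the 6 libraries. The red points of the libraries labelled Foxp1cKO lie left of all controls in 10 genes and right of all controls in Slc25a1.

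The NADP-dependent isocitrate dehydrogenases, which yield NADPH outside the main oxidative flow, overlapped between the groups. Cytosolic Idh1 had 253 to 300 CPM in controls and 256 and 268 CPM in the libraries labelled Foxp1cKO (log2 fold change -0.07), and mitochondrial Idh2 had 153 to 199 CPM and 168 and 186 CPM (-0.02). Control 3 was the highest control for Idh1 and the lowest for Idh2. Pyruvate carboxylase Pcx, the enzyme that makes oxaloacetate from pyruvate, had 24.9 to 30.9 CPM in controls and 27.8 and 30.2 CPM (0.05). The malic enzymes turn malate into pyruvate. Cytosolic Me1, whose exons overlap A330041J22Rik, was at 11.7, 14.5, 13.4 and 10.1 CPM in controls and at 10.5 and 10.6 CPM (-0.23, SE 0.169), within the range of the controls. Mitochondrial Me2 had 43.9 to 60.9 CPM and 46.6 and 46.5 CPM (-0.09).

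Glutamine and glutamate steps showed no separation either. Slc1a5, a glutamine transporter of the plasma membrane, varied most among controls, at 36.3, 27.6, 22.7 and 43.6 CPM, and the libraries labelled Foxp1cKO lay between them at 33.7 and 31.5 CPM. Its log2 fold change of 0.00 had the interval -0.58 to 0.58, the widest upward bound of the 30 genes. Glutamate dehydrogenase Glud1, which makes 2-oxoglutarate from glutamate, had 130 to 145 CPM in controls and 126 and 132 CPM (-0.08). Mitochondrial alanine aminotransferase Gpt2 had 46.5 to 55 CPM and 47.2 and 46.4 CPM (-0.09).

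Among the 6 genes of the malate-aspartate shuttle, 4 were lower and 2 higher (median log2 fold change -0.02). The 2-oxoglutarate/malate carrier Slc25a11, whose exons overlap Rnf167, was the only separated gene among them, at 62.8, 67.3, 59.7 and 60.1 CPM in controls and 51.8 and 59.0 CPM in the libraries labelled Foxp1cKO (-0.17, SE 0.091, adjusted p = 0.457). The margin between control 3 and the closer library was under 1 CPM, and the fold change was -0.0836 without library 1 labelled Foxp1cKO and -0.288 without library 2. Cytosolic malate dehydrogenase Mdh1, which overlaps Wdpcp, had 191, 194, 185 and 217 CPM in controls and 155 and 185 CPM (-0.21). Its library 1 labelled Foxp1cKO was well below the controls and library 2 was level with control 3. The aspartate aminotransferases Got1 (42.1 to 51.8 CPM in controls, 45.1 and 49.9 CPM in the others) and Got2 (109 to 118 CPM, 118 and 105 CPM) were at -0.01 and -0.02. The aspartate-glutamate carriers Slc25a12 (66.7 to 96.6 CPM, 78.8 and 78.5 CPM) and Slc25a13 (20.1 to 29.4 CPM, 25.6 and 23.9 CPM) were at 0.04 and 0.06, inside the range of the controls. Got2 has a named pseudogene and overlaps Gm45760, so its count is less certain.

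The mitochondrial citrate carrier Slc25a1 (ENSMUSG00000003528.14, chr16:17925223-17928219, minus strand), which exports citrate for lipid synthesis, was the only gene of the 30 in which all controls lay below both libraries labelled Foxp1cKO. It was at 42.7, 46.7, 43.8 and 44.1 CPM in controls and at 48.3 and 49.7 CPM in the libraries labelled Foxp1cKO. The gap to control 2 was small, and the log2 fold change was 0.14 (SE 0.074, 95% interval -0.03 to 0.32, adjusted p = 0.45).

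The promoter-side sequence of 4 of these genes is shown, the 3 lower genes with the largest size or smallest p (Fh1, Dlst, Sdhb) and the 1 higher gene whose libraries did not overlap (Slc25a1). Each runs 5′ to 3′ on the strand of the gene, from 250 bases before the RefSeq start (GRCm38.p6). It ends before the RefSeq start, or before the first exon base of any gene in GENCODE M21 where that comes earlier. Capitals mark matches of the motifs searched, ATTGG being CCAAT on the opposite strand and those near the 5′ end of Slc25a1 the hypoxia response element core on both strands.
Fh1, chr1:175625636-175625885, minus strand: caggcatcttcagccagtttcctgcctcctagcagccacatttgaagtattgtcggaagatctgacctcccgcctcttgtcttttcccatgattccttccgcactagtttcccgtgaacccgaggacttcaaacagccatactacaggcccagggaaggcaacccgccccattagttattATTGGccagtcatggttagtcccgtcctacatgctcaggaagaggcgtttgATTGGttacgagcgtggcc
Dlst, chr12:85110583-85110683, plus strand: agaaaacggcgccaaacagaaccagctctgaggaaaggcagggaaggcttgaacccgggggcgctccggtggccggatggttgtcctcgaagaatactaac
Sdhb, chr4:140961021-140961202, plus strand: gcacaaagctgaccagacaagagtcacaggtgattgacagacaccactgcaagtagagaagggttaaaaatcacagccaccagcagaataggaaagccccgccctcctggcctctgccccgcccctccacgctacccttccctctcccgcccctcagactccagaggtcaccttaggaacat
Slc25a1, chr16:17928220-17928469, minus strand: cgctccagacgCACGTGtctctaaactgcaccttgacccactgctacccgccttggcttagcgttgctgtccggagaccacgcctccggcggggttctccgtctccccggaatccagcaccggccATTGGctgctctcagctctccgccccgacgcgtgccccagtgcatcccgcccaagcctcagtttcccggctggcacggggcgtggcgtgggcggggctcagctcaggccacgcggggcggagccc
The Fh1 stretch holds the CCAAT box at 2 places, and the Slc25a1 stretch holds it once beside a CACGTG near its 5′ end. The printed stretches of Dlst and Sdhb hold none of the motifs searched, and the Dlst window also covers exon bases of Prox2.

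The 6 motifs were searched by letters on both strands in the whole windows, 250 bases before to 50 after each RefSeq start, of 26 of the 30 genes and of 12174 genes of the table. The forkhead letters TGTTTAC were in 0 of the 26 genes and in 3.11% of the 12174. The CCAAT box was in 16 genes (61.5%, against 42.4%), among them Cs, Sdha, Sdhb, Fh1 and Slc25a1. The hypoxia response element core ACGTG was in 8 (30.8%, against 28.2%), which were Idh3g, Ogdh, Sdha, Pcx, Me1, Mdh1, Slc25a13 and Slc25a1. The ETS letters CCGGAAG were in 6 (23.1%, against 17.6%), which were Idh3b, Idh3g, Dlst, Sdhb, Sdhd and Glud1. The NRF1 motif was in 3 (11.5%, against 10.1%), and the estrogen-related receptor letters AAGGTCA in 3 (11.5%, against 3.99%), Ogdh, Sdhd and Got1. A match of letters is a description and not a binding site, and windows of a gene with several starts can overlap.

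Levels between genes were compared as control mean CPM per kilobase of exon. On this scale Idh1 was highest at 99.6, followed by Mdh1 at 76.6, Idh2 at 69.3, Sdhd at 61.3, Mdh2 at 60.9 and Cs at 55.4. The lowest were Me1 at 3.23, Pcx at 5.91, Slc25a13 at 6.24 and Me2 at 6.82. The least of the 15 mitochondrial cycle enzymes, Suclg2, was at 8.90, above Pcx and both malic enzymes. Length here counts every annotated exon of a gene, which understates genes with long alternative exons.

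**Figure D4:**
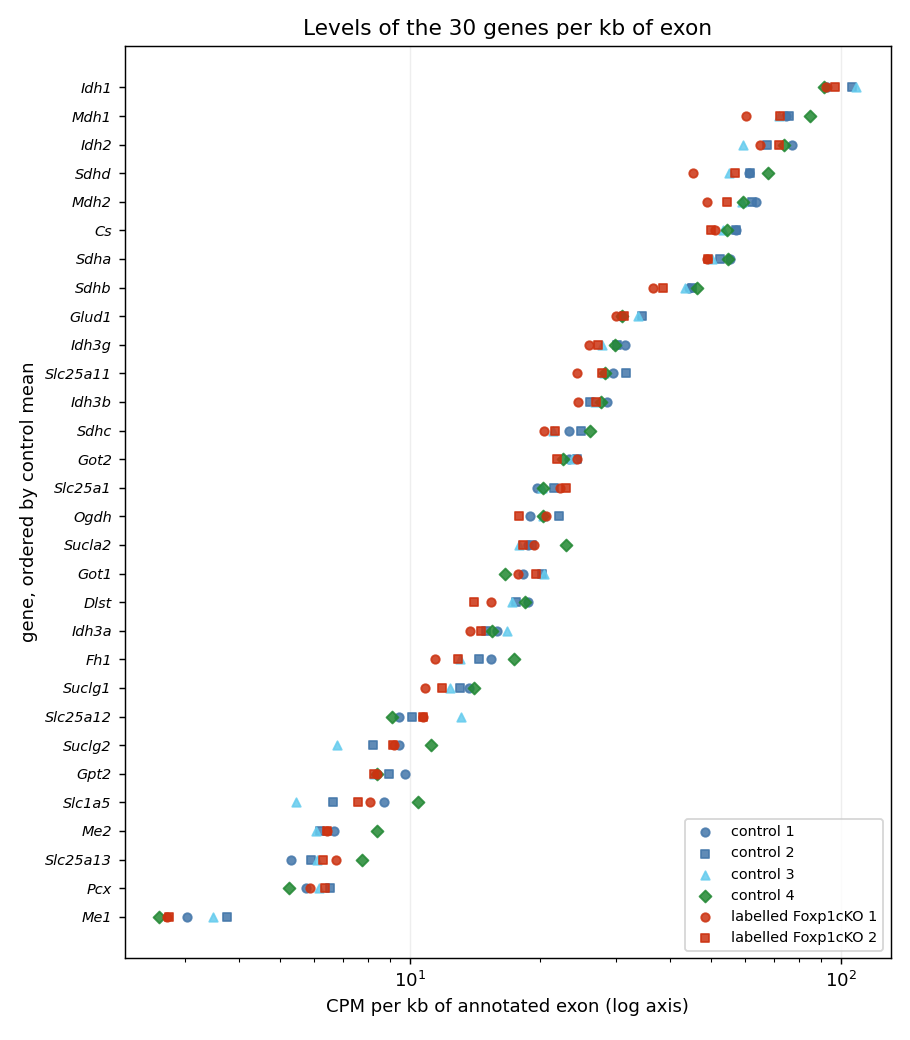
Level of each of the 30 genes as CPM per kilobase of exon (log axis), with 1 point for each of the 6 libraries. Idh1 is highest and Me1 lowest, and the spread between libraries is small beside the differences between genes.

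Where paired genes encode alternative forms of an enzyme, the share of each form was compared per length. Cytosolic Mdh1 made up 55.7% ± 2.15 (SD, n = 4) of the malate dehydrogenase level in controls and 56.1% in the libraries labelled Foxp1cKO, so the lower values of Mdh1 and Mdh2 came without a shift between them of more than the spread of the controls. Cytosolic Idh1 was 58.9% ± 4.74 (SD, n = 4) of the NADP isocitrate dehydrogenases in controls and 58.1% in the others. The share of Suclg2 among the ligase beta subunits was 30.9% ± 2.78 (SD, n = 4) and 32.8%, and that of Me1 against Me2 was 32.4% ± 6.37 (SD, n = 4) and 30%. Got1 was 44.4% ± 1.72 (SD, n = 4) of the aspartate aminotransferases and 44.7% in the others, and Slc25a12 was 62.4% ± 6.04 (SD, n = 4) of the aspartate-glutamate carriers and 62.2%. Over the 6 pairs, two-sided exact permutation p-values ran from 0.533 to 0.933, each 0.933 after Benjamini-Hochberg adjustment, and 4 libraries against 2 cannot give an exact p below 0.133.

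Control libraries also differed among themselves in these genes. Control 3, the Foxp1 fl/fl embryo, was the lowest control in 18 of the 30 genes (60%) and in 12 of the 15 mitochondrial cycle enzymes, where it was lowest in 34.5% of all genes. Its median deviation over the 30 genes was -0.06 on the log2 scale, against -0.01 to 0.01 in the other controls and -0.12 and -0.10 in the libraries labelled Foxp1cKO. Control 4 was highest in 11 of the 30 genes (36.7%), near its share of 36.3% over all genes. The same libraries stood apart in the marker genes. Among the controls, control 3 had the highest ventral telencephalon sum, and control 4 the highest radial glia and red cell sums. Control 1 had the highest sum of meninges and mesenchyme markers, 562.4 CPM, and control 3 the lowest, 92.651 CPM. The libraries labelled Foxp1cKO had 149.9 and 339.68 CPM. The part of these differences in the order of the controls was not tested. At an unadjusted p under 0.05 in either direction, 5 of the 30 genes passed, 9 without control 3 and 4 without control 4. Without control 1 and without control 2 the count was 3 each. Over all 17068 genes 2224 passed, 3009 without control 3, 3252 without control 4, 1454 without control 1 and 1398 without control 2. Without control 4 the count of the 30 genes thus fell while that of all genes rose.

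The pathway was extended by 33 further genes around the cycle, of which 30 were in the table. No gene of this list passed an adjusted p of 0.05 with edgeR, 19 were lower and 11 higher (50.7% of all genes were lower), and the median log2 fold change was -0.10. At an unadjusted p under 0.05, 4 were lower and 2 higher, where 6.50% and 6.53% of all genes were, and DESeq2 called 1 of the list, Slc25a10. The libraries did not overlap in 6 lower and 3 higher genes, where 13.1% and 11.5% of all genes did not. The higher count is below its share over all genes.

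The dicarboxylate carrier Slc25a10, which moves malate and succinate across the inner mitochondrial membrane, had the smallest p of the extended list. It was at 24.0, 22, 20.2 and 25.9 CPM in controls and at 16.0 and 15.1 CPM in the libraries labelled Foxp1cKO (log2 fold change -0.57, SE 0.126, 95% interval -0.87 to -0.27, adjusted p = 0.242). The groups lay well apart. The paper, with litter also in its model, lists Slc25a10 among its top downregulated genes. The other lower genes at an unadjusted p under 0.05 were the succinate dehydrogenase assembly factors Sdhaf1 and Sdhaf4 and the glutamine transporter Slc38a5. Sdhaf2 and Sdhaf3, also assembly factors in the list, overlapped between the groups (log2 fold changes -0.05 and 0.11). Sdhaf1 was at 16.0, 18.5, 14.5 and 16.4 CPM in controls and at 11.8 and 13.4 CPM in the libraries labelled Foxp1cKO (log2 fold change -0.37, adjusted p = 0.345). Sdhaf4 was at 11.0, 13.1, 12.3 and 11.6 CPM in controls and at 8.48 and 10.4 CPM (-0.35, adjusted p = 0.382), and its fold change was -0.206 without library 1 labelled Foxp1cKO and -0.519 without library 2. Slc38a5 was low throughout, at 1.57, 2.38, 1.62 and 1.17 CPM in controls and at 0.735 and 1.03 CPM (-0.92, adjusted p = 0.349). Sdhaf1, Sdhaf4 and Slc38a5 did not overlap between the groups. The cytosolic alanine aminotransferase Gpt also did not overlap, at 11.0, 11.2, 11.4 and 11.3 CPM in controls and at 9.92 and 8.94 CPM (-0.25, adjusted p = 0.417).

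The genes higher at an unadjusted p under 0.05 were Dhtkd1, a 2-oxoadipate dehydrogenase related to Ogdh, and the cytosolic glycerol-3-phosphate dehydrogenase Gpd1. Dhtkd1 was at 14.9, 15.3, 17.3 and 15.4 CPM in controls and at 18.5 and 19.9 CPM in the libraries labelled Foxp1cKO (log2 fold change 0.29, adjusted p = 0.35). Gpd1 was at 2.53, 2.64, 2.07 and 2.43 CPM in controls and at 3.80 and 2.97 CPM (0.48, adjusted p = 0.382), and its fold change was 0.295 without library 1 labelled Foxp1cKO. In both genes the controls lay below the others. Methylmalonyl-CoA epimerase Mcee, a step from propionyl-CoA to succinyl-CoA, was at 10.8, 11.2, 10.7 and 13.4 CPM in controls and at 14.3 and 14.0 CPM (0.30, adjusted p = 0.409), again with no overlap. Me3, the NADP malic enzyme of mitochondria, was at 0.517, 0.837, 1.29 and 0.737 CPM in controls and 0.835 and 2.78 CPM in the others, so that its log2 fold change of 1.10 rested on 1 library.

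**Figure D5:**
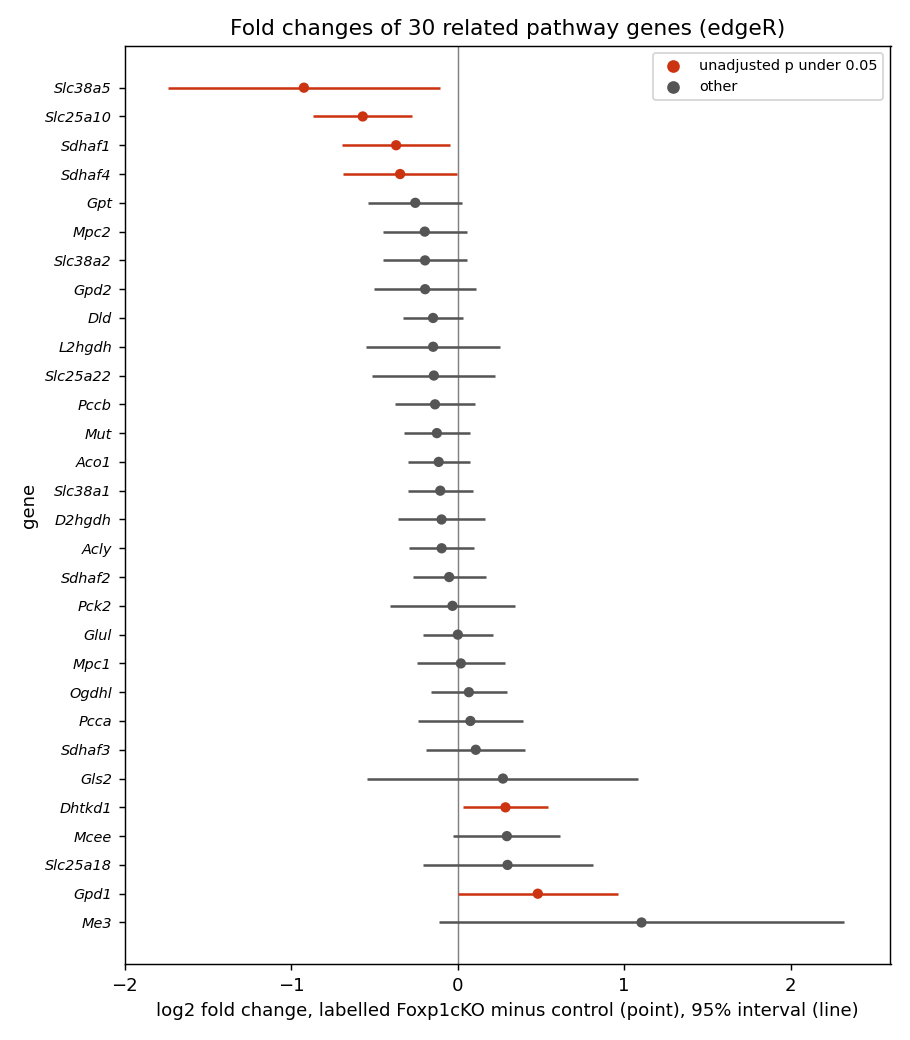
Log2 fold change (labelled Foxp1cKO minus control, x axis) of the 30 further genes around the cycle (y axis), with the edgeR estimate as a point and its 95% confidence interval as a line. Slc25a10, Slc38a5, Sdhaf1 and Sdhaf4 lie below 0 and Dhtkd1 and Gpd1 above 0 at an unadjusted p under 0.05, and Me3 has a wide interval.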

How the data were processed

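Total RNA (miRNeasy) of 6 embryos was made into libraries with a stranded kit. Per the labels' processing notes and the methods, the authors used STAR to align reads to mm10 and HTSeq 0.9.1 (union mode) to count them per gene, and removed genes with under 10 counts across a set share of the samples. The deposited table holds unnormalized counts of 17068 genes. The strand setting of the counting is not given in the sources used here. The authors also deposited log2-like variance-stabilised values, used only in an alternative with limma 3.58.1. Symbols came from GENCODE M21 (15605 identifiers with version, 1442 without, 21 not matched).

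Counts were normalised by TMM and tested with edgeR 4.0.16 (quasi-likelihood, R 4.3.3) in a model of group alone, since litter, held in the authors' model, is not in the labels. p-values were adjusted by Benjamini-Hochberg over all genes, with a threshold of 0.05. SE was the fold change divided by the root of F, and log2 CPM used a prior count of 2. Tests were tried on simulated data. Alternatives were DESeq2 1.42.0, limma, other scalings, a filter at a mean of 1 CPM, the replicate block, and each library left out. Leaving out controls 3 and 4 together was chosen after seeing the data.

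All 30 genes could be named; library values were given for those with an unadjusted p under 0.05, with groups that did not overlap, or with the 5 largest differences, and likewise (3 largest) for the further genes. The genes and lists were chosen with earlier results of these data known. The p-values measure the spread between single embryos. Sox2 and Tubb3 were not analysed here, and some genes of the further list are not reported here.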

Additional observations from a re-analysis of the deposited data

How the results depend on the processing

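The 26 genes called by edgeR over all genes became 507 with DESeq2 (197 lower) and 0 with the replicate block, where 3027 had an unadjusted p under 0.05. Controls 3 and 4 share their numbers with no other library, so in the replicate block they added nothing to the fold changes. The count was 63 without controls 3 and 4 together, and 2 to 96 with each control left out in turn. Among the 30 TCA cycle and anaplerosis genes, the count of 0 became 2 with DESeq2 (Dlst, log2 fold change -0.289, adjusted p = 0.0386; Sdhb, -0.246, adjusted p = 0.0365) and was 0 under each other alternative run. Over all alternatives the adjusted p of Dlst ran from 0.0386 to 0.775 and that of Sdhb from 0.0365 to 0.885. DESeq2 called 1 of the further genes, Slc25a10 (-0.566, adjusted p = 0.00372). The median log2 fold change of the 30 genes, -0.09, was -0.143 to -0.103 with each library left out and -0.106 with the replicate block. Numbers 1 and 2 are shared by a control and a library labelled Foxp1cKO. Their deviations from the group means correlated at -0.198 and 0.0157. With 2 libraries labelled Foxp1cKO those deviations mirror each other, so the correlations cannot decide whether the numbers pair littermates. Litter is not in the labels. Of 286 recomputed values of single genes, 282 kept direction and side of the threshold, 3 passed it newly, and Me3 reversed (range -0.0393 without library 2 labelled Foxp1cKO to 1.71 without library 1). With each library left out, the differences in share changed sign for 4 of 6 pairs, and ran from -2.3 to 1 percentage points for Idh1 (1 without control 3), -0.439 to 1.5 for Mdh1 (-0.115 without control 1), -2.29 to 2.9 for Got1 (-0.403 without control 4) and -2.98 to 1.82 for Slc25a12 (0.358 and 0.0682 without controls 1 and 2, 0.586 without library 1 labelled Foxp1cKO). The cause was not tested. Control means of the 30 genes were at least 12.4 CPM, above the floor of 0.0381 to 0.0596 CPM, and how depth or the number of embryos bears on the calls was not tested.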
